A study of Mus musculus with 11 samples.

Results

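The genes described here are effectors that cells switch on when they sense interferon: the Ifit, Oas, Mx and Parp families, the Isg15 conjugation system and antiviral enzymes and membrane proteins. They were taken as a list of 43 named genes because the group had been noted for lower values in OVA-challenged Foxa3 knockout lung, so that difference is described here and not tested. Probes were found for 41 of the 43, and all 41 passed the filter on dim probes, which left 21883 genes in the series. Of the 41, 38 carried the listed name or its alias on the array, and Cmpk2, Uba7 and Phf11d were found by accession under the names Tyki, Ube1l and D14Ertd668e. Xaf1 and Dtx3l were not analysed here. Oas1g was not well above background on any saline array and passed the filter through the OVA arrays alone, so its rise with OVA is no free test and counts are also given for the other 40.

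Total RNA of mouse lung was measured on 11 one-colour Agilent arrays. The groups were littermate controls, called wild type here, given saline (3 arrays) or OVA (3 arrays), and Foxa3-/- mice given saline (2 arrays) or OVA (3 arrays). OVA is ovalbumin, an egg protein used as an allergen, and Foxa3 is a forkhead transcription factor found in airway mucous cells. Strain, age, dose and timing are not given in the sources used here, nor is the cell type or promoter behind the gene deletion, and nothing says how many animals gave each RNA, so p-values measure the spread between these samples.

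Type I and type III interferons bind receptors that activate the kinases Jak1 and Tyk2, which phosphorylate Stat2. Stat2 acts with Irf9 in a complex that binds the interferon-stimulated response element in the promoters of effector genes, while interferon-gamma acts through a separate element, the gamma-activated sequence. Irf7 is itself induced and raises interferon production. In lung these effectors are best known for limiting respiratory viruses.

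Between 71.2% and 78.9% of probes were well above background per array, and the arrays lay on 3 slides. Slides 1 and 2 held 1 array of each group and slide 3 lacked a knockout saline array. The Foxa3 probe was well above background on all 6 wild-type arrays and on none of the 5 knockout arrays, with log2 levels of -5.94 ± 0.12 (SD, n = 3) in wild-type saline and -8.53 ± 0.12 (SD, n = 2) in knockout saline. All 12 lung markers checked, among them the surfactant gene Sftpc and the club cell gene Scgb1a1, were well above background on all 11 arrays. Levels below are log2 intensities relative to each array's 75th percentile, so 0 is the level of that percentile, and levels of different probes are not comparable with each other.

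The promoter sequences show which of these genes carry the letters that the complex of Stat2 and Irf9 reads. RefSeq promoters (GRCm38.p6, 250 bases before to 50 after the start) were present for 30 of the 41 measured genes. The response element was searched on both strands as GAAANNGAAA. It was found in 11 of the 30 genes (36.7%), against 3.99% of the genes in the whole promoter table. Among the genes described in full that hold it, the 4 with the widest gap between the genotypes after OVA are printed, as the 250 bases before the start with each match in capitals. The printed stretch of Isg15 is on the minus strand at chr4:156200819-156201068, that of Oas3 on the minus strand at chr5:120777660-120777909, that of Ifit1 on the plus strand at chr19:34640639-34640888 and that of Rsad2 on the minus strand at chr12:26456453-26456702.
Isg15: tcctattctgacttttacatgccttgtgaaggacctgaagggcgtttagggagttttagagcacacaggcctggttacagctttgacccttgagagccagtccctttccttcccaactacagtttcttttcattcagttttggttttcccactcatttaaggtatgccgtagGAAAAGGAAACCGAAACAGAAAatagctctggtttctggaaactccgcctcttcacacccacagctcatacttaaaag
Oas3: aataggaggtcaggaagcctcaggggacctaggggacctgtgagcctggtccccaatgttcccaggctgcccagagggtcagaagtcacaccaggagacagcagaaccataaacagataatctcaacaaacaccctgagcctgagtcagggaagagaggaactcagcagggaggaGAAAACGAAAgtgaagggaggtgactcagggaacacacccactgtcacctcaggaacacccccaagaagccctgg
Ifit1: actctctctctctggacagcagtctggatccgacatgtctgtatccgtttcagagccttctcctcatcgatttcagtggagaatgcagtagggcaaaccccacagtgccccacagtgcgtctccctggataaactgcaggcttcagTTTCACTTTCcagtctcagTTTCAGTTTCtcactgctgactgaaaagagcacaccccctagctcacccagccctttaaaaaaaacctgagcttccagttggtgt
Rsad2: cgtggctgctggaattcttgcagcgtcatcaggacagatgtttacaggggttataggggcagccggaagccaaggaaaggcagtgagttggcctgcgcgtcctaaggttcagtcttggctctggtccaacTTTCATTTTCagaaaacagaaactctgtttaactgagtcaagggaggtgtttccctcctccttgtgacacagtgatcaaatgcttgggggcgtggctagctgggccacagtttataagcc
Isg15 holds 3 matches that overlap in 1 run, 57 to 78 bases before its start, and Ifit1 holds 2 on the opposite strand. Oas3 and Rsad2 each hold 1. Of 19 matches in these genes' promoters, 15 lie before the start site, in 9 genes, at 12 to 191 bases from it. With 1 to 3 bases allowed between the 2 GAAA blocks, a form that includes the first, 60% of the 30 genes and 9.91% of all genes in the table matched. The gamma-activated sequence, searched on both strands as TTCNNNGAA, was in 23.3% of the 30 genes and 9.55% of all genes. A match is a stretch of letters and not a measured binding site.

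With OVA, 40 of the 41 genes rose in wild-type lung, or 39 of 40 without Oas1g, and Samd9l was the exception. Of all genes tested, 10.9% were called higher and 7.9% lower in this comparison (limma, Benjamini-Hochberg adjusted p under 0.05). For all 41, every wild-type OVA array was above every wild-type saline array, as it was for 22.2% of all genes. The median difference over the 41 was 1.64 on the log2 scale (1.52 without Oas1g), against 0.02 over all genes, and the 40 other genes ranged from 0.40 for Tdrd7 to 3.43 for Mx1. In knockout lung 38 were higher and 3 lower with OVA, and the median was 0.54. There 11 were called higher (10 of 40 without Oas1g) and none lower, against 6.45% and 1.78% of all genes, and 26 had an unadjusted p under 0.05. Every knockout OVA array was above both knockout saline arrays for 34 genes (24.5% of all genes) and below both for Samd9l alone (24.4% of all genes). The 11 were Oas1a, Oas1g, Oasl2, Mx1, Mx2, Isg15, Usp18, Ifi27l2a, Parp9, Lgals3bp and Ifi204. With slide as a block, 6 of these 11 were called, Oas1g among them (3.58% of all genes). The adjusted p by limma was then 0.0511 for Isg15, 0.0822 for Oasl2, 0.0871 for Parp9, 0.0668 for Lgals3bp and 0.071 for Ifi204. The OVA arrays are those on which the group was noted, so these counts are not independent of how the genes were chosen. By limma the knockout count was 0 without knockout saline array 1 (0.356% of all genes; 15 of the 41 at an unadjusted p under 0.05) and 3 without knockout saline array 2 (1.89% of all genes). It was 4 and 3 without knockout OVA arrays 1 and 3 (3.03% and 2.44% of all genes), and 6, 7 and 6 without wild-type saline arrays 1, 2 and 3 (4.98%, 4.19% and 4.52% of all genes), so calls over all genes fell too.

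After OVA, all 41 genes were lower in knockout than in wild type with no overlap between the 3 arrays of each genotype. Of all genes, 4.56% had every knockout OVA array below every wild-type OVA array, a share from which nothing is read since the comparison chose the genes. The median difference was -1.03, from -1.76 for Ifi44 to -0.32 for Tdrd7. The median rise over the wild-type saline mean was 1.37, 1.47 and 1.97 on the 3 wild-type OVA arrays and 0.55, 0.52 and 0.69 on the 3 knockout OVA arrays. Wild-type OVA array 3 was the highest of its group for 40 of the 41 genes, against 30.8% of all genes, and without it the median difference between genotypes was -0.89. In bulk lung, fewer cells of a type and less RNA per cell cannot be told apart.

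**Figure D1:**
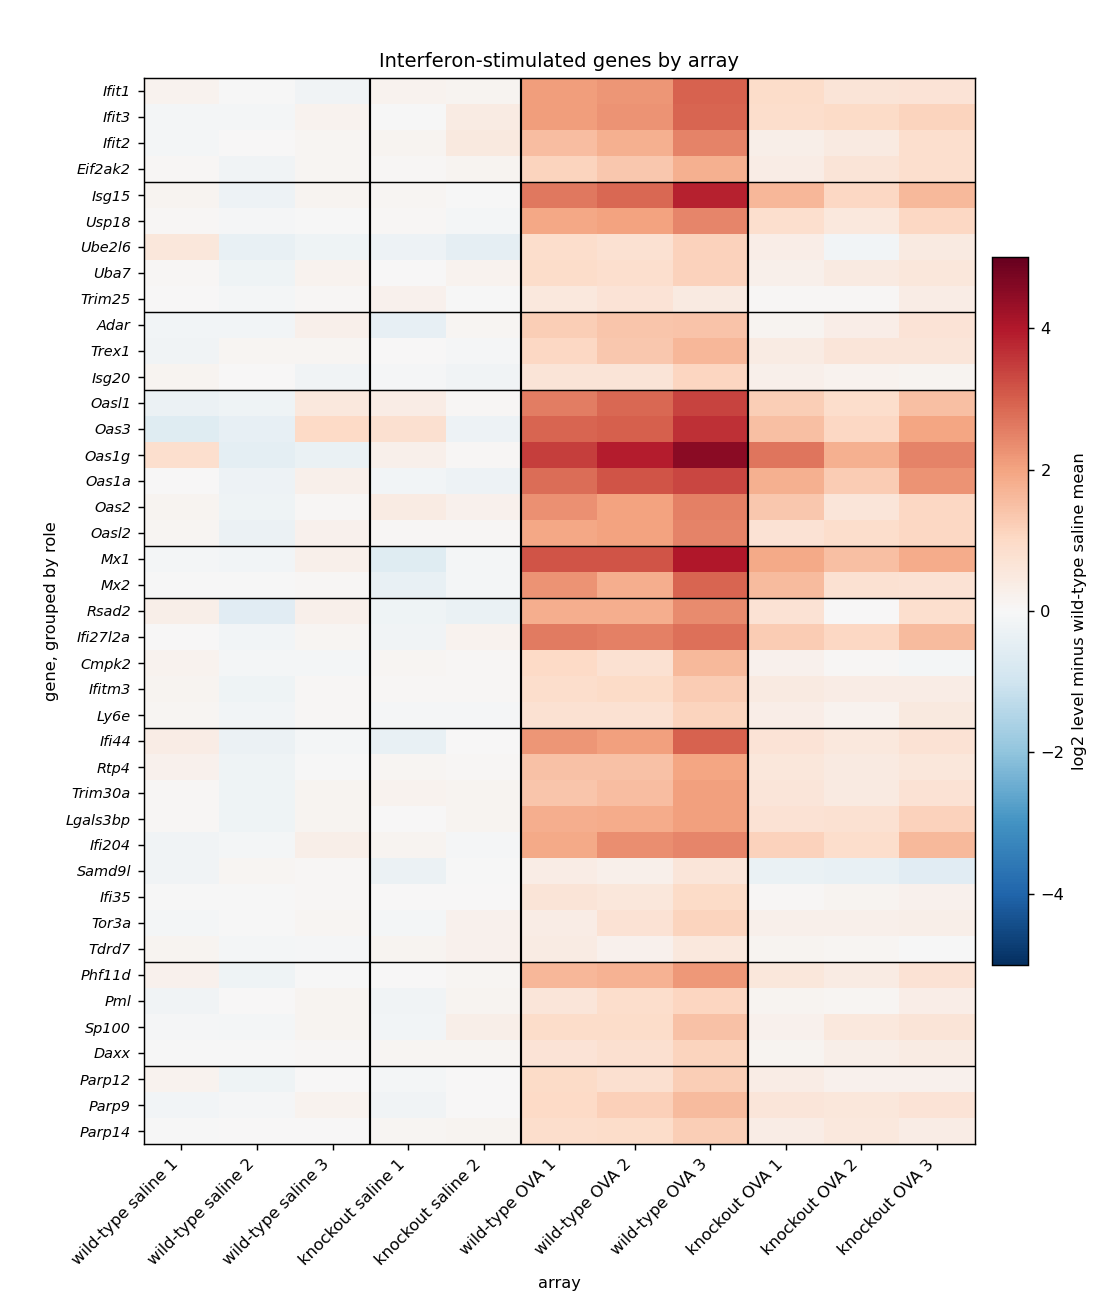
Colour gives the log2 level of each of the 41 genes (rows, grouped by role) on each of the 11 arrays (columns), minus that gene's mean over the wild-type saline arrays. The wild-type OVA columns are the reddest in every row, with array medians of 1.37 to 1.97, and the knockout OVA columns lie between them and the saline columns for most genes, with medians of 0.52 to 0.69.

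The Ifit proteins bind foreign or unusually capped RNA and block its translation, and Eif2ak2 (PKR) is a kinase that stops translation on sensing double-stranded RNA. All 4 genes of this group rose with OVA in wild type and none was called in knockout. Ifit1 lay at -0.41, -0.60 and -0.75 on the wild-type saline arrays, -0.41 and -0.46 on the knockout saline arrays, 1.50, 1.61 and 2.35 on the wild-type OVA arrays and 0.34, 0.05 and 0.10 on the knockout OVA arrays. The wild-type OVA arrays stood above all other arrays, and the knockout OVA arrays lay between them and the saline arrays. Its rise was 2.41 ± 0.21 (SE, adjusted p = 0.000934), or 5.32-fold, in wild type and 0.59 ± 0.24 (SE, adjusted p = 0.133), or 1.51-fold, in knockout. After OVA the means were 1.82 ± 0.46 in wild type and 0.16 ± 0.15 in knockout (SD, n = 3 each), 3.16-fold apart.

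Ifit3 lay at 2.34, 2.35 and 2.60 on the wild-type saline arrays, 2.41 and 2.83 on the knockout saline arrays, 4.52, 4.68 and 5.35 on the wild-type OVA arrays and 3.31, 3.40 and 3.56 on the knockout OVA arrays. It kept the same order of groups without overlap. Its rise was 2.42 ± 0.21 (SE, adjusted p = 0.000944) in wild type and 0.80 ± 0.24 (SE, adjusted p = 0.0684) in knockout. Eif2ak2 lay at 0.14, -0.07 and 0.20 on the wild-type saline arrays, 0.16 and 0.21 on the knockout saline arrays, 1.19, 1.44 and 1.87 on the wild-type OVA arrays and 0.46, 0.75 and 0.92 on the knockout OVA arrays. Its genotype difference after OVA, -0.79, was the smallest of the group, and its rise was 1.41 ± 0.18 (SE, adjusted p = 0.00319) in wild type and 0.52 ± 0.21 (SE, adjusted p = 0.129) in knockout. Ifit2 rose by 1.94 in wild type, while in knockout the difference was 0.20 (adjusted p = 0.664) and the OVA arrays overlapped the saline arrays. A second Ifit2 probe gave 2.47 in wild type and 0.93 in knockout, so the small knockout difference belongs to 1 probe. Ifit2 and Ifit3 are adjacent genes, and the family members are similar enough in sequence that probes may share signal.

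Isg15 is a ubiquitin-like protein joined to other proteins during an interferon response. Uba7 and Ube2l6 are its activating and conjugating enzymes, Usp18 removes it and damps receptor signalling, and Trim25 is a ubiquitin ligase of the RIG-I pathway. All 5 rose in wild type, and Isg15 and Usp18 rose in knockout too. Isg15 lay at 0.52, 0.16 and 0.53 on the wild-type saline arrays, 0.51 and 0.38 on the knockout saline arrays, 3.05, 3.27 and 4.24 on the wild-type OVA arrays and 2.07, 1.43 and 2.01 on the knockout OVA arrays. Saline arrays of both genotypes shared 1 narrow range, and the knockout OVA arrays reached about midway between saline and wild-type OVA. Its rise was 3.12 ± 0.30 (SE, adjusted p = 0.00122), or 8.69-fold, in wild type and 1.39 ± 0.34 (SE, adjusted p = 0.0399), or 2.63-fold, in knockout. Usp18 lay at 1.19, 1.08 and 1.09 on the wild-type saline arrays, 1.18 and 1.03 on the knockout saline arrays, 3.07, 3.13 and 3.56 on the wild-type OVA arrays and 1.96, 1.64 and 2.16 on the knockout OVA arrays. Its rise was 2.13 ± 0.17 (SE, adjusted p = 0.000533) in wild type and 0.82 ± 0.19 (SE, adjusted p = 0.0335) in knockout, with no overlap between any OVA group and its saline group.

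Trim25 lay at 3.12, 3.00 and 3.15 on the wild-type saline arrays, 3.32 and 3.09 on the knockout saline arrays, 3.64, 3.76 and 3.55 on the wild-type OVA arrays and 3.16, 3.15 and 3.47 on the knockout OVA arrays. Its knockout OVA arrays overlapped the knockout saline arrays. It had a rise of 0.56 ± 0.12 (SE, adjusted p = 0.0194) in wild type and a difference of 0.05 ± 0.14 (SE, adjusted p = 0.832) in knockout, close enough to 0 that its sign turned under median scaling. A second Trim25 probe gave 1.28 in wild type and 0.82 in knockout and was the one further probe, of 22, whose OVA arrays overlapped between genotypes. Ube2l6 and Uba7 rose by 0.93 and 0.96 in wild type, and neither was called in knockout.

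Adar edits adenosine to inosine in double-stranded RNA, Trex1 degrades cytosolic DNA and Isg20 degrades RNA. These 3 genes rose in wild type and were not called in knockout. Adar lay at 0.23, 0.22 and 0.62 on the wild-type saline arrays, -0.06 and 0.44 on the knockout saline arrays, 1.60, 1.75 and 1.79 on the wild-type OVA arrays and 0.50, 0.69 and 1.05 on the knockout OVA arrays. It was lower on each knockout OVA array than on any wild-type OVA array. The rise was 1.35 ± 0.19 (SE, adjusted p = 0.00383) in wild type and 0.55 ± 0.21 (SE, adjusted p = 0.118) in knockout. Trex1 lay at 0.02, 0.28 and 0.29 on the wild-type saline arrays, 0.24 and 0.15 on the knockout saline arrays, 1.21, 1.56 and 1.87 on the wild-type OVA arrays and 0.60, 0.80 and 0.82 on the knockout OVA arrays. Its 2 OVA groups did not overlap each other or their saline groups, and its rise was 1.35 ± 0.16 (SE, adjusted p = 0.00265) in wild type and 0.54 ± 0.18 (SE, adjusted p = 0.0921) in knockout. Isg20 lay at 2.21, 2.09 and 1.90 on the wild-type saline arrays, 2.01 and 1.89 on the knockout saline arrays, 2.69, 2.72 and 3.12 on the wild-type OVA arrays and 2.32, 2.23 and 2.19 on the knockout OVA arrays. The knockout OVA arrays were close to the saline arrays, 1 of them below the highest wild-type saline array, with a difference of 0.30 ± 0.15 (SE, adjusted p = 0.229), against a rise of 0.78 ± 0.14 (SE, adjusted p = 0.00903) in wild type.

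The oligoadenylate synthetases make, on sensing double-stranded RNA, the short oligoadenylates that activate RNase L. Oasl1 and Oasl2 are relatives, and Oasl1 is known to repress Irf7 translation. These 6 genes rose together in wild type, with a median of 3.01, and had a median of 1.11 in knockout, both the same with Oas1g at its lower bound, where Oas1a, Oas1g and Oasl2 were called. Oasl1 lay at -1.86, -1.75 and -1.04 on the wild-type saline arrays, -1.17 and -1.50 on the knockout saline arrays, 1.01, 1.34 and 1.83 on the wild-type OVA arrays and -0.34, -0.67 and -0.04 on the knockout OVA arrays. Its groups kept the order of saline, knockout OVA and wild-type OVA with no overlap. The rise was 2.94 ± 0.28 (SE, adjusted p = 0.00122), or 7.67-fold, in wild type and 0.99 ± 0.32 (SE, adjusted p = 0.0807) in knockout, and the genotypes were 3.34-fold apart after OVA.

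Oas3 lay at -4.15, -3.98 and -2.55 on the wild-type saline arrays, -2.77 and -3.80 on the knockout saline arrays, -0.64, -0.56 and 0.07 on the wild-type OVA arrays and -2.04, -2.54 and -1.58 on the knockout OVA arrays. Its saline arrays spread more widely than those of Ifit1 or Isg15, with 1 wild-type and 1 knockout array higher than the rest. The rise was 3.19 ± 0.47 (SE, adjusted p = 0.00466) in wild type and 1.23 ± 0.52 (SE, adjusted p = 0.151) in knockout. A second Oas3 probe gave 3.16 in wild type and 1.80 in knockout. Oasl2 lay at 2.40, 2.03 and 2.51 on the wild-type saline arrays, 2.38 and 2.37 on the knockout saline arrays, 4.25, 4.34 and 4.78 on the wild-type OVA arrays and 3.05, 3.19 and 3.36 on the knockout OVA arrays. It rose by 2.14 ± 0.17 (SE, adjusted p = 0.000596) in wild type and by 0.82 ± 0.19 (SE, adjusted p = 0.0381) in knockout.

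Oas1g was not well above background on any saline array, so its rise is given as a lower bound of at least 12.1-fold in wild type, over 3 arrays that measured it, and of at least 3.42-fold in knockout, where 2 of 3 OVA arrays measured it. The bound sets the OVA mean against each saline array's dimmest signal well above background, or the probe's own if higher. The limma test gave adjusted p = 0.00128 in wild type and adjusted p = 0.0254 in knockout, values that support nothing here, since the high OVA arrays are what let the probe pass the filter. Oas1a rose by 3.08 in wild type and 1.96 in knockout, and for Oas2 the values were 2.27 and 0.68, the second with adjusted p = 0.0906. Oas1a and Oas1g are adjacent near-copies, so signal may be shared between their probes.

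Mx1 and Mx2 are dynamin-like GTPases that block viral replication, Mx1 in the nucleus and Mx2 in the cytoplasm in mice. Both rose in both genotypes. Mx1 lay at -3.60, -3.63 and -3.23 on the wild-type saline arrays, -4.09 and -3.59 on the knockout saline arrays, -0.33, -0.34 and 0.51 on the wild-type OVA arrays and -1.58, -1.99 and -1.62 on the knockout OVA arrays. Every OVA array exceeded every saline array, and the wild-type OVA arrays exceeded the knockout ones. The rise was 3.43 ± 0.26 (SE, adjusted p = 0.000533), or 10.8-fold, in wild type and 2.11 ± 0.29 (SE, adjusted p = 0.0053), or 4.33-fold, in knockout. Mx2 lay at -0.93, -0.94 and -0.86 on the wild-type saline arrays, -1.26 and -1.02 on the knockout saline arrays, 1.35, 0.92 and 1.99 on the wild-type OVA arrays and 0.66, -0.15 and -0.17 on the knockout OVA arrays. Knockout OVA array 1 was the nearest to wild type. Its rise was 2.33 ± 0.29 (SE, adjusted p = 0.00281) in wild type and 1.26 ± 0.32 (SE, adjusted p = 0.0474) in knockout, and it was the 1 gene of the 41 with both knockout saline arrays below the 3 wild-type saline arrays.

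**Figure D2:**
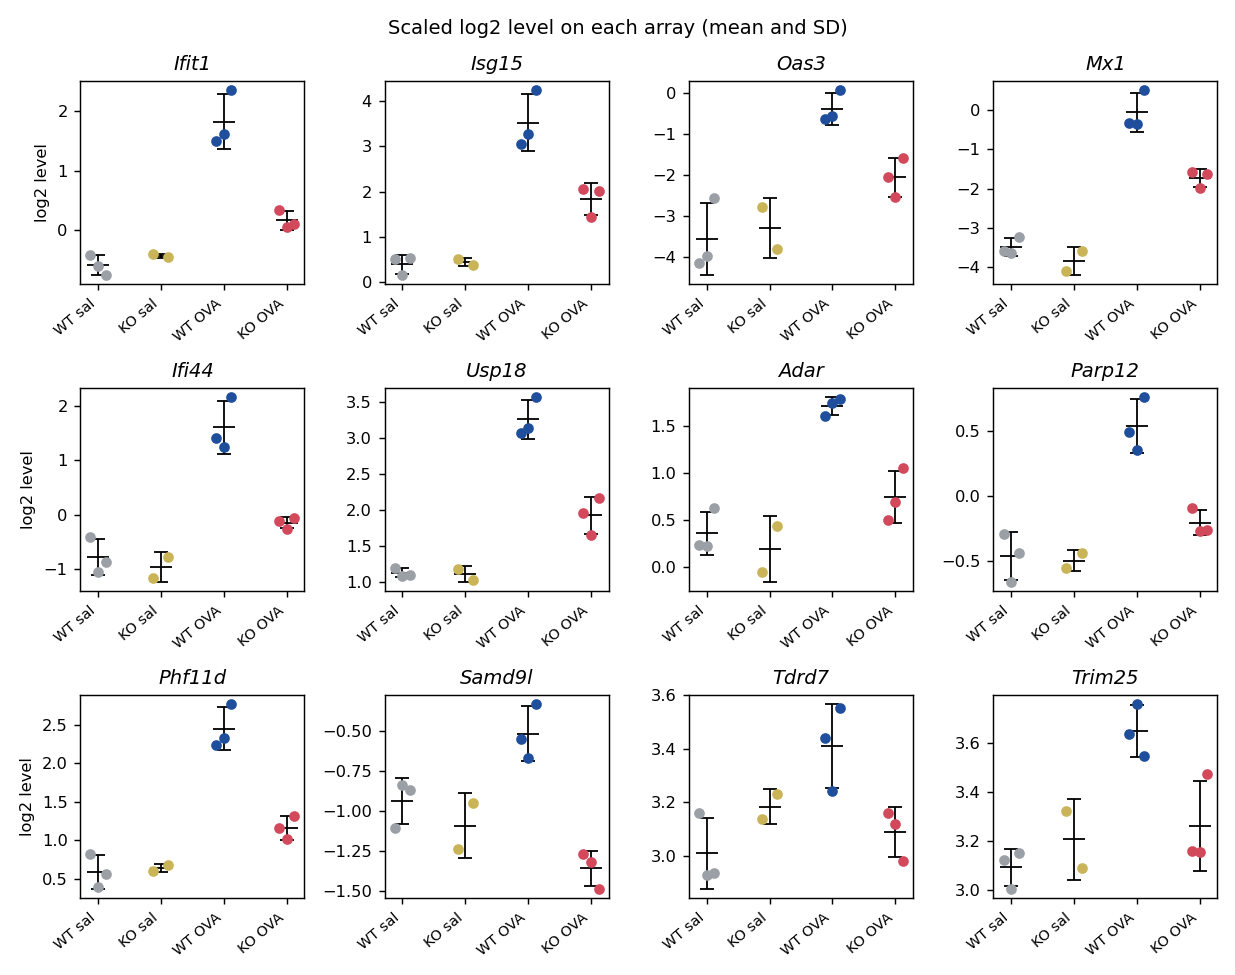
Each panel gives the log2 level of 1 gene on every array (points) with the group mean and SD (bars), for wild-type (WT) and knockout (KO) lung with saline (sal) or OVA; vertical ranges differ between panels. In Ifit1, Isg15, Oas3, Mx1 and Ifi44 the knockout OVA points lie between the saline and wild-type OVA points, in Samd9l they lie below the saline points, and in Tdrd7 and Trim25 they overlap the knockout saline points.

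Rsad2 (viperin) makes a nucleotide that terminates viral RNA chains and its neighbour Cmpk2 is a mitochondrial nucleotide kinase. Ifitm3 blocks virus entry at endosomes, Ly6e is a lipid-anchored surface protein and Ifi27l2a a small membrane protein. All 5 rose in wild type, and Ifi27l2a rose in knockout. Rsad2 lay at 0.05, -0.81 and 0.02 on the wild-type saline arrays, -0.46 and -0.56 on the knockout saline arrays, 1.59, 1.57 and 2.13 on the wild-type OVA arrays and 0.49, -0.21 and 0.61 on the knockout OVA arrays. Knockout OVA array 2 was lower than the others, yet all 3 exceeded the knockout saline arrays. The rise was 2.01 ± 0.29 (SE, adjusted p = 0.00459) in wild type and 0.81 ± 0.33 (SE, adjusted p = 0.136) in knockout, and 2 further Rsad2 probes differed by -1.34 and -1.35 between genotypes after OVA. Ifi27l2a lay at 4.11, 3.94 and 4.16 on the wild-type saline arrays, 3.91 and 4.25 on the knockout saline arrays, 6.69, 6.57 and 6.81 on the wild-type OVA arrays and 5.34, 5.12 and 5.64 on the knockout OVA arrays. With 2.62 ± 0.16 (SE, adjusted p = 0.000194) in wild type, it had the smallest adjusted p of the 41, and it rose by 1.29 ± 0.17 (SE, adjusted p = 0.0053) in knockout.

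Ly6e lay at 3.82, 3.61 and 3.78 on the wild-type saline arrays, 3.70 and 3.68 on the knockout saline arrays, 4.51, 4.50 and 4.84 on the wild-type OVA arrays and 4.08, 3.90 and 4.23 on the knockout OVA arrays. Its rise was 0.88 ± 0.13 (SE, adjusted p = 0.00471) in wild type and 0.38 ± 0.14 (SE, adjusted p = 0.119) in knockout. Cmpk2 lay at -0.20, -0.45 and -0.45 on the wild-type saline arrays, -0.25 and -0.30 on the knockout saline arrays, 0.64, 0.41 and 1.26 on the wild-type OVA arrays and -0.14, -0.32 and -0.46 on the knockout OVA arrays. It rose by 1.14 in wild type, while its knockout OVA arrays straddled the saline arrays, a difference of -0.03 (adjusted p = 0.949). Rsad2 and Cmpk2 are adjacent genes, and of the pair Rsad2 alone stood above knockout saline on all knockout OVA arrays. Ifitm3 rose by 1.03 in wild type, and in knockout the difference was 0.35 (adjusted p = 0.147).

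A further 9 genes encode interferon-induced proteins of other kinds, among them Ifi204, a DNA-sensing protein, Rtp4, a receptor chaperone, Lgals3bp, a secreted glycoprotein, and Ifi44, whose biochemical role is less defined. Of these, 8 rose in wild type, and Lgals3bp and Ifi204 also rose in knockout. Ifi44 lay at -0.41, -1.06 and -0.88 on the wild-type saline arrays, -1.16 and -0.78 on the knockout saline arrays, 1.41, 1.25 and 2.17 on the wild-type OVA arrays and -0.12, -0.26 and -0.06 on the knockout OVA arrays. Its 3 knockout OVA arrays were close together and above all saline arrays. The rise was 2.40 ± 0.26 (SE, adjusted p = 0.00151) in wild type and 0.82 ± 0.29 (SE, adjusted p = 0.0974) in knockout, and the genotypes were 3.38-fold apart after OVA, the widest gap of the 41. A second Ifi44 probe gave 2.29 in wild type and 0.01 in knockout. Rtp4 lay at 3.32, 2.89 and 3.06 on the wild-type saline arrays, 3.17 and 3.16 on the knockout saline arrays, 4.56, 4.56 and 5.06 on the wild-type OVA arrays and 3.64, 3.56 and 3.66 on the knockout OVA arrays. Its rise was 1.64 ± 0.16 (SE, adjusted p = 0.00122) in wild type and 0.46 ± 0.18 (SE, adjusted p = 0.125) in knockout.

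Tdrd7 is a tudor-domain protein reported to restrain autophagy, and it had the narrowest gap. It lay at 3.16, 2.93 and 2.94 on the wild-type saline arrays, 3.14 and 3.23 on the knockout saline arrays, 3.44, 3.24 and 3.55 on the wild-type OVA arrays and 3.16, 3.12 and 2.98 on the knockout OVA arrays. The knockout OVA arrays overlapped both saline groups. The rise was 0.40 ± 0.11 (SE, adjusted p = 0.0421) in wild type and the difference in knockout was -0.10 ± 0.13 (SE, adjusted p = 0.665). Samd9l, an antiviral and growth-restraining protein, lay at -1.10, -0.84 and -0.87 on the wild-type saline arrays, -1.23 and -0.95 on the knockout saline arrays, -0.55, -0.67 and -0.33 on the wild-type OVA arrays and -1.27, -1.32 and -1.48 on the knockout OVA arrays. Every wild-type OVA array was above every wild-type saline array and every knockout OVA array was below both knockout saline arrays. The difference was 0.42 ± 0.13 (SE, adjusted p = 0.0554) in wild type and -0.27 ± 0.15 (SE, adjusted p = 0.26) in knockout, and neither passed the test.

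Trim30a, Lgals3bp and Ifi204 rose by 1.66, 1.91 and 2.22 in wild type, and in knockout the differences were 0.44 (adjusted p = 0.174), 0.78 (adjusted p = 0.0241) and 1.19 (adjusted p = 0.0255). Ifi35 and Tor3a rose by 0.72 and 0.74 in wild type and were not called in knockout. A second Tor3a probe gave 0.09 in wild type. Trim30a and Ifi204 belong to families of close copies whose probes may share signal.

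Pml and Sp100 build nuclear bodies that restrain viral genomes, Daxx is a histone chaperone of those bodies, and Phf11d is a zinc-finger protein. All 4 rose in wild type and none was called in knockout, where Pml and Sp100 overlapped saline. Phf11d lay at 0.83, 0.39 and 0.56 on the wild-type saline arrays, 0.60 and 0.68 on the knockout saline arrays, 2.24, 2.33 and 2.77 on the wild-type OVA arrays and 1.16, 1.01 and 1.32 on the knockout OVA arrays. Its knockout OVA arrays lay above all saline arrays. The rise was 1.86 ± 0.17 (SE, adjusted p = 0.00101) in wild type and 0.53 ± 0.19 (SE, adjusted p = 0.103) in knockout. The probe written Phf11, which RefSeq assigns to Phf11a, gave 1.87 in wild type and 0.58 in knockout, and the copies may share signal. Pml lay at 0.47, 0.66 and 0.78 on the wild-type saline arrays, 0.45 and 0.78 on the knockout saline arrays, 1.23, 1.53 and 1.70 on the wild-type OVA arrays and 0.76, 0.74 and 0.98 on the knockout OVA arrays. Daxx lay at 2.90, 2.90 and 3.01 on the wild-type saline arrays, 3.04 and 3.04 on the knockout saline arrays, 3.62, 3.73 and 4.07 on the wild-type OVA arrays and 3.06, 3.23 and 3.35 on the knockout OVA arrays. The rise in wild type was 0.85 ± 0.16 (SE, adjusted p = 0.0105) for Pml. For Daxx it was 0.87 ± 0.13 (SE, adjusted p = 0.00497). In knockout the differences were 0.21 and 0.17, and Sp100 rose by 1.10 in wild type against 0.39 (adjusted p = 0.259) in knockout.

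Parp9, Parp12 and Parp14 belong to the family of enzymes that attach ADP-ribose to proteins, and Parp9 works with its neighbour's product Dtx3l. All 3 rose in wild type, and Parp9 rose in knockout. Parp12 lay at -0.29, -0.66 and -0.44 on the wild-type saline arrays, -0.55 and -0.44 on the knockout saline arrays, 0.49, 0.35 and 0.76 on the wild-type OVA arrays and -0.09, -0.26 and -0.26 on the knockout OVA arrays. Its rise was 0.99 ± 0.14 (SE, adjusted p = 0.00374) in wild type, and the knockout difference was 0.29 ± 0.15 (SE, adjusted p = 0.235). Parp9 lay at -0.07, 0.01 and 0.25 on the wild-type saline arrays, -0.13 and 0.07 on the knockout saline arrays, 1.05, 1.25 and 1.65 on the wild-type OVA arrays and 0.65, 0.64 and 0.75 on the knockout OVA arrays. It rose by 1.25 ± 0.16 (SE, adjusted p = 0.00293) in wild type and by 0.71 ± 0.18 (SE, adjusted p = 0.0437) in knockout, a knockout value above those of Parp12 and Parp14. Parp14 lay at 3.43, 3.46 and 3.46 on the wild-type saline arrays, 3.57 and 3.57 on the knockout saline arrays, 4.31, 4.35 and 4.70 on the wild-type OVA arrays and 3.83, 3.98 and 3.84 on the knockout OVA arrays. Its rise was 1.00 ± 0.11 (SE, adjusted p = 0.00204) in wild type and the knockout difference was 0.31 ± 0.13 (SE, adjusted p = 0.141), with tight groups on all sides.

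Set against the wild-type rise, the knockout rise on the log2 scale was a median of 34.4% over the 41 genes, from -63.2% for Samd9l to 63.5% for Oas1a, and under 50% for 34 of them. The difference between the 2 rises holds the comparison that chose the genes and was not tested. The genes with the response element in their promoter had a median rise of 2.41 in wild type and 0.80 in knockout (11 genes), and those without had 1.10 and 0.33 (19 genes). Tdrd7, with a match, was among the smallest rises and Oasl1, without one, among the largest, so the groups' ranges overlapped.

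**Figure D3:**
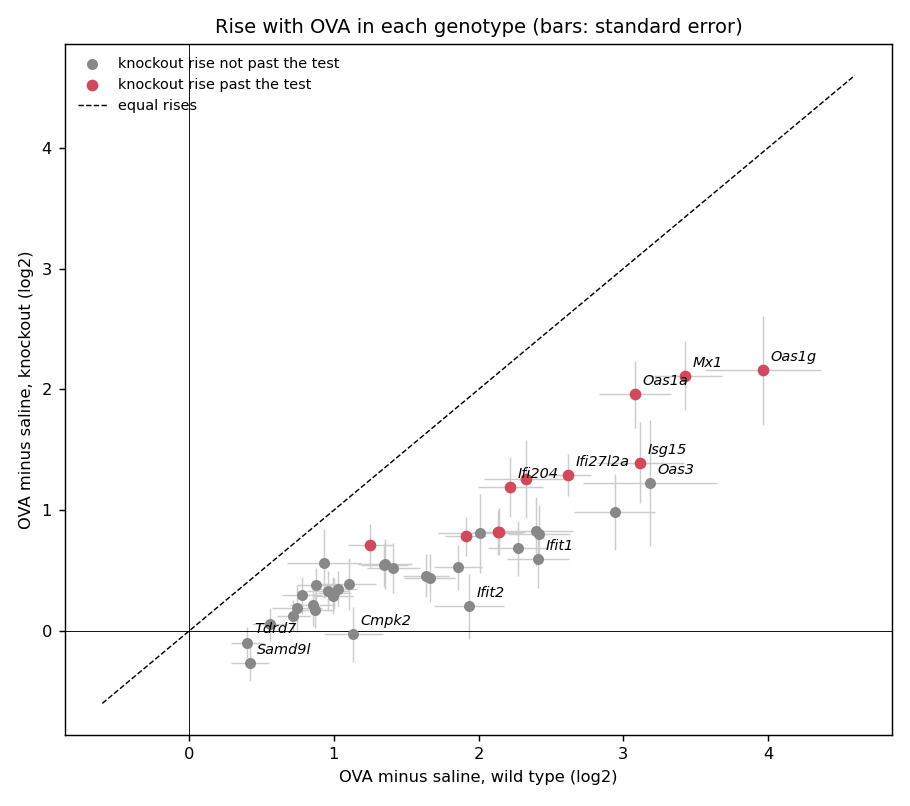
Each point is 1 of the 41 genes, with its OVA minus saline difference (log2) in wild type on the horizontal axis and in knockout on the vertical axis, bars for the standard error and the dashed line for equal differences. All points lie below the line, and the 11 red points are the genes called higher in knockout. Oas1g, not well above background with saline, is drawn at its measured differences of 3.97 and 2.16.

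The group was noted on the OVA arrays. Earlier results of these data were known when the genes were chosen, so the saline comparison is not fully independent either. With saline the genotypes were close. The median knockout minus wild-type difference over the 41 genes was 0.05, against 0.02 over all genes, and it ranged from -0.36 for Mx1 to 0.32 for Ifit2. By limma none of the 41 was called in either direction, against 0.0274% of all genes higher and 0.0685% lower, and none had an unadjusted p under 0.05, against 3.27% of all genes. Ifit2, Oas2, Parp14 and Daxx were higher on both knockout saline arrays than on any wild-type saline array (10.9% of all genes), and Mx2 was lower (10.6% of all genes). With 3 arrays against 2, a difference that missed the threshold is not shown to be absent. For Ifit1 the saline means were -0.59 ± 0.17 (SD, n = 3) and -0.43 ± 0.03 (SD, n = 2), and for Isg15 0.40 ± 0.21 and 0.44 ± 0.09.

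Within slides, the knockout OVA array was below the wild-type OVA array for all 41 genes on each of the 3 slides, with medians of -1.33, -0.68 and -1.06. The wild-type rise was above 0 for all 41 on each slide, with medians of 1.85, 1.53 and 1.41. In knockout 36 genes were higher with OVA on slide 1 and 38 on slide 2, with medians of 0.48 and 0.71. With slide as a block, 40 of the 41 were called higher in wild type (8.86% of all genes) and, in knockout, Oas1a, Mx1, Mx2, Usp18 and Ifi27l2a (3.58% of all genes). Oas1g was called in knockout too, but it passed the filter through the OVA arrays alone, so that call supports nothing. Without the 4 arrays of slide 1, limma called 5 in wild type (0.123% of all genes) and 0 in knockout (0.0457% of all genes), with 40 and 19 at an unadjusted p under 0.05 and a wild-type median of 1.49.

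**Figure D4:**
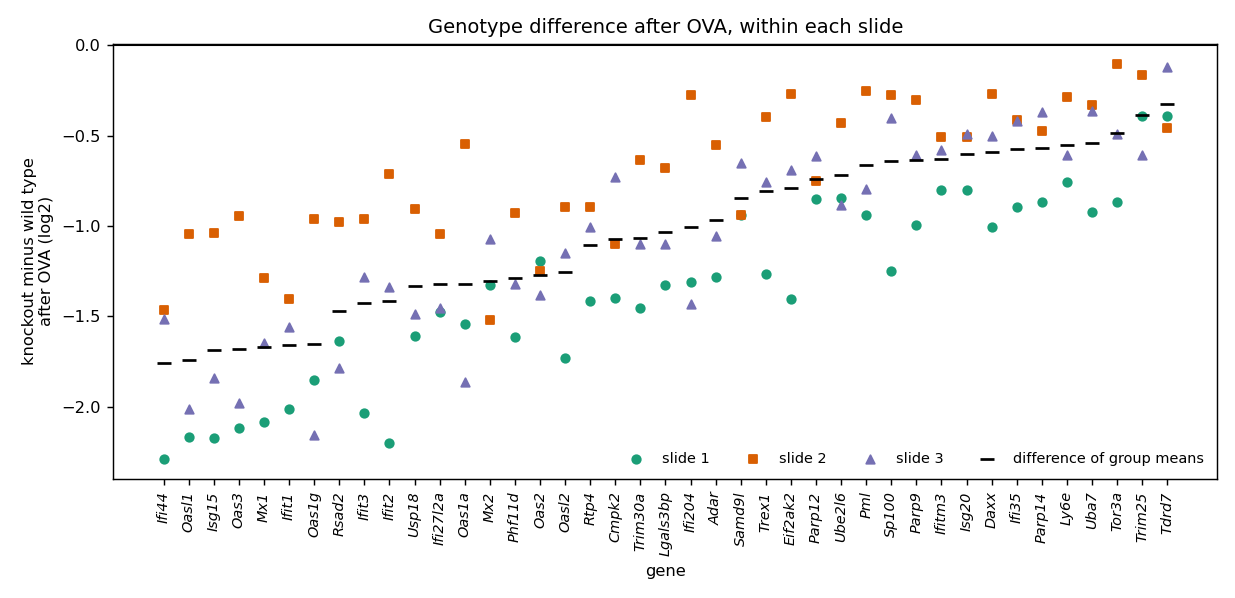
The vertical axis gives knockout minus wild type after OVA (log2) for each of the 41 genes, ordered by the difference of group means (black dashes), with 1 symbol per slide. All symbols lie below 0, and slide 2, with a median of -0.68, is nearest to 0 for most genes.

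The pathway that feeds these genes was read from further lists. Of the ligands, Ifng rose in both genotypes, by 1.48 ± 0.37 (SE, adjusted p = 0.0281) in wild type and 1.60 ± 0.41 (SE, adjusted p = 0.0481) in knockout, and its OVA arrays overlapped between genotypes. Ifnb1 was well above background on 2 wild-type OVA arrays, 1 knockout OVA array and no saline array, so its level was mostly below detection. None of the other 8 measured ligands was called in either genotype. Of 6 receptors, Ifnar2 and Ifngr2 rose and Ifnlr1 fell in wild type, Ifngr2 rose in knockout, and none differed without overlap between genotypes after OVA.

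Among 11 kinases and factors, 7 rose in wild type and 3 in knockout, against 10.9% and 6.45% of all genes called higher. Calls over all genes were thus fewer in knockout too, where the saline group holds 2 arrays. Irf7 lay at -0.36, -0.47 and -0.22 on the wild-type saline arrays, -0.51 and -0.62 on the knockout saline arrays, 2.94, 2.77 and 3.59 on the wild-type OVA arrays and 0.71, 0.22 and 1.03 on the knockout OVA arrays. Its 3 knockout OVA arrays were far below the wild-type ones and above all saline arrays. It rose by 3.45 ± 0.25 (SE, adjusted p = 0.000482), or 10.9-fold, in wild type and by 1.22 ± 0.28 (SE, adjusted p = 0.0328), or 2.33-fold, in knockout, a genotype gap after OVA of -2.45, wider than for any of the 41 effectors. Stat2 and Irf9 rose by 1.41 and 0.84 in wild type, and in knockout the differences were 0.68 (adjusted p = 0.0851) and 0.29 (adjusted p = 0.104). Of the 11, 5 were lower in knockout after OVA without overlap, against 4.56% of all genes, and 1 was higher. Stat2 and Irf9 were among the 5, by log2 differences of -0.82 and -0.65, as were Tyk2 and Jak1, by -0.39 and -0.13. Tyk2 was lower in knockout without overlap with saline already, by -0.23 (not called by limma). Irf5 and Irf8, factors active in myeloid cells, were the others that rose in knockout, by 1.30 (adjusted p = 0.0169) and 0.74 (adjusted p = 0.0375), against 1.39 and 0.91 in wild type. Irf1, a factor of the interferon-gamma branch, rose by 0.45 in wild type and differed by -0.03 between genotypes after OVA, with overlap.

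Nucleic acid sensors and their adaptors rose for 11 of 15 genes in wild type and 4 in knockout. Of all genes, 10.9% and 6.45% were called higher. Zbp1 rose by 3.49 ± 0.32 (SE, adjusted p = 0.00111) and 2.29 ± 0.36 (SE, adjusted p = 0.00864), and Dhx58, a RIG-I relative, by 2.36 ± 0.22 (SE, adjusted p = 0.00114) and 1.05 ± 0.25 (SE, adjusted p = 0.0367). Cgas, which detects cytosolic DNA, rose by 1.15 and 1.00, and its adaptor Sting1 by 1.68 and 1.60. Zbp1 and Dhx58 were lower in knockout after OVA without overlap, by -1.10 and -1.29, whereas Cgas and Sting1 overlapped. Ifih1, named after its values were seen, rose by 0.98 in wild type and differed by 0.07 in knockout (adjusted p = 0.83).

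Genes led by interferon-gamma, such as the guanylate-binding proteins and immunity-related GTPases, rose for 14 of 15 in wild type and 13 in knockout. The shares of all genes called higher were 10.9% and 6.45%. Cxcl9, a T cell chemokine, rose by 6.21 ± 0.29 (SE, adjusted p = 0.000124) and 6.22 ± 0.33 (SE, adjusted p = 0.000325), and its OVA arrays overlapped between genotypes. Irgm1 rose by 1.79 and 1.06, Iigp1 by 2.06 and 1.77, and Ido1 by 1.70 and 1.28. The list's median rise was 1.64 in wild type and 1.14 in knockout, and its median genotype difference after OVA was -0.44, against -1.03 for the 41 effectors. On slides 1, 2 and 3 the list's difference was -0.80, -0.07 and -0.29, with 6 of the 15 genes higher in knockout on slide 2. After OVA, 9 of the 15 genes were lower in knockout without overlap, against 4.56% of all genes. Whether the lists differ was not tested. Of the inhibitors, Socs1, Socs3 and Ptpn6 rose in wild type, and Socs1 and Socs3 in knockout.

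**Figure D5:**
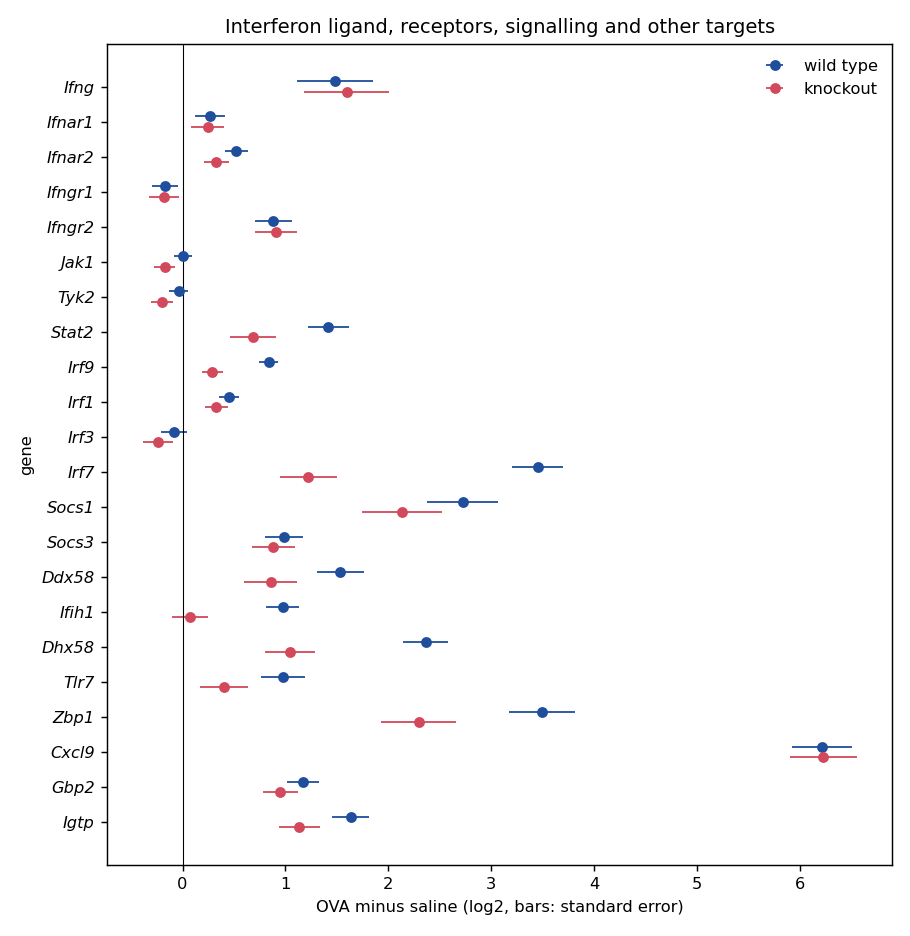
Points give the OVA minus saline difference (log2, bars for the standard error) in wild type and knockout for 22 genes of the interferon pathway, chosen after their values were seen. Irf7 stands out with 3.45 against 1.22, Cxcl9 has 6.21 and 6.22, and Ifng has 1.48 and 1.60.

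Marker genes of some cell types were lower in knockout after OVA. Of all genes, 4.56% were lower on every knockout OVA array than on any wild-type OVA array. Of 9 natural killer cell markers, 7 were lower in knockout OVA without overlap, with a median of -0.61, and their summed level (in multiples of the array's 75th percentile) was 8.94 to 11.3 on wild-type OVA and 5.90 to 7.95 on knockout OVA arrays. Of 8 B cell markers, 5 were lower without overlap (median -0.63), with sums of 18.9 to 23.7 and 12.8 to 13.9. After OVA, both lists had medians below 0 on each slide. B cell sums also varied widely with saline, from 6.34 to 19.1 in wild type and 10.4 to 18.3 in knockout. There the median genotype difference of the 8 was 1.60 on slide 1 and -0.59 on slide 2. None of the 8 was called with OVA in either genotype.

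Of 10 plasmacytoid dendritic cell markers, a type known for making interferon, 5 were lower in knockout OVA without overlap, against 4.56% of all genes. The median over the 10 was -0.47, with sums of 75.9 to 96.9 on wild-type and 45.3 to 54.3 on knockout OVA arrays. Most of the wild-type sum is 1 bright probe, that of Bst2, which interferon itself induces and which rose by 1.79 in wild type and 0.84 in knockout. It made up 48.8 to 71.6 of the wild-type sums and 23.3 to 34.4 of the knockout sums, and the other 9 markers summed to 25.3 to 27.1 and 19.4 to 21.9. Siglech, a defining receptor of these cells, was lower in knockout without overlap with saline already, by -0.58 (not called by limma, adjusted p = 0.922). After OVA it differed by -0.85. Its OVA minus saline difference was 0.12 (adjusted p = 0.602) in wild type and -0.15 (adjusted p = 0.608) in knockout. The list did not share the saline difference: its median was -0.02, with 5 markers above 0 and 5 below. With saline, 2 of the 10 were lower without overlap, against 10.6% of all genes. Ly6d and Spib, both among the 5 lower after OVA, differed with saline by 1.22 and 1.00 on slide 1 and by -0.56 and -0.66 on slide 2. The B cell list had saline medians of the same signs on these slides, and a shared source was not tested. Tcf4, Runx2, Klk1, Pacsin1 and Cox6a2 overlapped between genotypes after OVA.

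Of 14 monocyte and macrophage markers, 1 was lower in knockout OVA without overlap (4.56% of all genes) and 13 overlapped, with a median of -0.15 over the 14. Their sums were 297.6 to 321.5 on wild-type and 238.7 to 270.1 on knockout OVA arrays, of which the bright Lyz2 probe alone gave 178.2 to 220.7 and 146.2 to 181.3. The other 13 summed to 80.1 to 143.3 and 77.7 to 123.8, which overlap. The list's median difference was -0.37, 0.82 and -0.84 on slides 1, 2 and 3, with 11 of the 14 higher in knockout on slide 2.

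After OVA, the 10 T cell markers had a median of 0.01 and overlapped in all cases, with sums of 8.87 to 12.4 and 9.29 to 12.2. With saline all 10 were higher in knockout, with a median of 0.49. There 4 did so without overlap, against 10.9% of all genes, and limma called 0. Their median rise with OVA was 1.15 in wild type and 0.52 in knockout. Neutrophil markers summed to 39.4 to 75.3 on wild-type OVA and 55.7 to 130.7 on knockout OVA arrays, and eosinophil markers to 8.05 to 18.3 and 11.0 to 22.1. All 12 cell cycle genes rose in both genotypes (10.9% of all genes in wild type and 6.45% in knockout) and overlapped after OVA. Every measured marker was well above background on at least 1 array of each group. The part of these cell types in the lower effector values was not tested.

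The 41 genes include neighbours in the genome: Oasl1 with Oasl2, Oas2 with Oas3, Oas1a with Oas1g, Ifit2 with Ifit3, Rsad2 with Cmpk2, and Parp14 and Parp9 on either side of Dtx3l. Mx1 and Mx2 have 1 gene between them. Of the 41, 18 had more than 1 probe, and the 22 further probes that passed the filter were all lower in knockout OVA, 21 of them without overlap. All 22 were higher with OVA in wild type and 20 in knockout.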

How the data were processed

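Total RNA of mouse lung was measured on 11 one-colour (Cy3) Agilent arrays, grouped by genotype and challenge as the titles give them. Per the file headers, the deposited scanner files hold a background-subtracted intensity per spot from Feature Extraction 9.5.1.1, while the submitters' processing notes name 9.1. The deposited value table holds log2 values whose ranks follow the raw spot signal; how it was made is not given in the sources used here, and it served as an alternative. Its column medians were 7.67, and its scale and direction were read from the values.

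Intensities were taken as log2 minus each array's 75th percentile. Of 41174 probes other than controls, 32956 passed a filter that asks for signal well above background on 2 or more arrays, and the brightest probe stood for each of 21883 genes. A RefSeq accession, current symbol or synonym named the probe, in that order. All arrays entered 1 limma fit (version 3.58.1 in R 4.3.3) with a mean for each group, 7 residual and 1.95 prior degrees of freedom, and two-sided tests with Benjamini-Hochberg adjustment over all genes and a threshold of 0.05. It was tested on simulated data with known changes of 1.5-fold, 2-fold and 4-fold, in 67, 67 and 66 genes. For OVA against saline in knockout it found 8.96%, 56.7% and 83.3% of them, and in wild type 10.4%, 59.7% and 81.8%. Most 1.5-fold changes were thus missed in the simulation. It changed a far smaller share of genes than was called in the data (10.9% higher and 7.9% lower in wild type). The adjustment depends on that share, so the simulated rates need not hold for the data. The number of arrays limits the precision.

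The genes and the 15 lists of pathway and marker genes were chosen with earlier results of these data known. Genes given on every array are, per role, the 2 with the largest and the 1 with the smallest difference between the genotypes after OVA. Cmpk2 and Samd9l are also given on every array, outside this rule and with their values known. Of the lists, the 3 of smallest p in a tested comparison are named, and Stat2, Irf9, Irf7, Irf1, Ifng, Ifnb1 and Foxa3 always. One gene of the signalling list is not reported here. Alternatives were normexp background correction (offset 50), quantile and median scaling, other filters, probe means, a trended robust prior, a fit of only the groups compared, blocks for slide and replicate number, no slide 1, the deposited value table and each array left out. Scan date could not be a block, since all arrays share 1 date.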

Additional observations from a re-analysis of the deposited data

Results flagged for a closer look

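Samd9l was the 1 gene of the 41 whose OVA difference ran opposite ways in the genotypes on every array. With OVA it was 0.42 higher on the log2 scale in wild type and had a difference of -0.27 in knockout. All 3 wild-type OVA arrays lay above all 3 wild-type saline arrays, and all 3 knockout OVA arrays lay below both knockout saline arrays. Neither difference passed limma's test (adjusted p = 0.0554 and 0.26), and the difference between them was not tested.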

How the results depend on the processing

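All 41 genes were higher with OVA in wild type under each alternative that kept them, and 40 or 41 kept knockout OVA below wild-type OVA without overlap. The wild-type median of 1.64 was 1.39 with normexp background correction and 1.38 from the authors' deposited value table, and 1.47 to 1.72 with 1 array left out. The wild-type count of 40 ranged from 36 to 40 with 1 array left out and was 5 without slide 1 (0.123% of all genes, against 10.9%). The knockout count of 11 (6.45% of all genes) was 7 with no filter on dim probes (3.74%) and 2 with only the groups compared (1.93%). It was 6 with slide as a block (3.58%) and 0 without slide 1 (0.0457%). With 1 array left out it ranged from 0 (0.356%) to 13 (8.62%). Over the same fits the medians ranged from 0.44 to 0.58 (OVA against saline, knockout), -1.14 to -0.89 (genotypes after OVA) and -0.02 to 0.06 (genotypes, saline), the non-overlapping count stayed at 41, and the saline genotype counts stayed at 0 in either direction by limma, with no member at an unadjusted p under 0.05 in the fit of all arrays. Of named genes, the Trim25 knockout difference of 0.05 turned to -0.000266 with median scaling and -0.0103 without slide 1, and it ranged from -0.0625 to 0.172 with 1 array left out, below 0 without knockout saline array 2 or knockout OVA array 3. The cause of these changes was not tested, except that fits with fewer arrays have a smaller sample. Same-numbered arrays on different slides did not deviate together (median correlation -0.16, from -0.41 to 0.20 over 12 pairs), so the numbers were not taken as pairing; with a replicate block the knockout count was 5 (3.08% of all genes) and the wild-type count 39 (9.27%). Arrays on 1 slide had median correlations of 0.262 (12 pairs of different number) and 0.266 (3 pairs of the same number), and 5 of the 11 knockout calls were lost with slide as a block. The stricter filter of 6 arrays removed Oas1g, whose own calls are no free test. It left 40 of 40 called higher in wild type (12.3% of all genes) and 10 of 40 in knockout (7.37%). The smallest called wild-type difference was 0.40 (Tdrd7); with 2 or 3 arrays a group, a difference that missed the threshold is not shown to be absent.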
